A study of Mus musculus with 12 samples.

Results

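The genes described here encode the translation initiation and elongation factors, the proteins that bring a ribosome to an mRNA, set it on the start codon and move it along the coding sequence. They were taken from the deposited table by name: every row whose symbol starts with Eif1 to Eif6, Eef1 or Eef2 was included, except 5 Argonaute rows that carry the older symbol Eif2c. This gave 70 of 37477 rows. The cells were CCE cells, a mouse embryonic stem cell line grown in serum medium with LIF, a cytokine that keeps such cells undifferentiated. All 4 groups, of 3 libraries each, received a pLKO.1-puro lentivirus with a short hairpin RNA and puromycin selection. A control hairpin was measured at day 2 after transduction, and a hairpin against the long noncoding RNA TUNA at day 2, day 4 and day 6. The cells were a selected pool of 1 line, and the labels do not give the hairpin sequences. The day 2 groups share their time point. At day 4 and day 6 the hairpin and the days in culture cannot be told apart.

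Initiation in the cytoplasm starts when eIF4E binds the cap of an mRNA and, through the scaffold eIF4G, brings in the helicase eIF4A. eIF3 links this complex to the small ribosomal subunit, which carries the initiator tRNA delivered by eIF2, and eIF1, eIF1A and eIF5 act while the subunit scans for a start codon. Elongation then depends on eEF1, which delivers charged tRNAs, and eEF2, which moves the ribosome along. Initiation is also the step most often regulated. Kinases that phosphorylate eIF2 slow general initiation and favour the transcription factor ATF4, and the eIF4E binding proteins block eIF4E until the kinase mTOR releases it.

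The values are normalized counts, made by the authors, in libraries with a recovered depth of 3522224 to 5652545 reads. Between 60.4% and 76.9% of these reads lay in 3 rows tied to the U3 small nucleolar RNA, which left 936447 to 2024785 reads for the other rows. The row of the targeted RNA, 2810011L19Rik, was listed at 0 in 12 of 12 libraries, so the table cannot show the knockdown. All 12 of 12 pluripotent cell markers in a fixed list were measured. Of 14 fibroblast and feeder cell markers, 6 were at 0 in every library (Col1a1, Col1a2, Col3a1, Dcn, Lum and Postn). Nothing in the labels shows whether the 3 libraries of a group were grown as separate cultures, so p-values cover only library-to-library spread, part of which may be technical.

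Of the 70 factor rows, 61 reached 10 normalized counts in 3 or more libraries and were tested among 8739 rows, 55 of them with 10 or more in all 12 libraries. The 9 rows that were not tested were Eef1a2, Eif4e1b, Eif2s3x-ps1 and Eif3s6-ps4, listed at 0 in all libraries, and the low Eif4e3, Eif4g3, Eif2b4, Eif4ebp3 and Eef2k. Per kilobase of annotated exon, averaged over the 12 libraries, the order was led by Eef1a1, the tRNA-delivering elongation factor, at 4890.3 normalized counts per kb. The helicase genes Eif4a1 and Eif4a2 followed at 1153 and 602, then Eef2 at 282, Eif4h at 220.3 and Eif5a at 183. The scaffold gene Eif4g1 lay lower on this per-kilobase scale, at 29.9, as did the cap-binding genes Eif4e2 at 14.9 and Eif4e at 14.0. The eIF2 kinases Eif2ak4 and Eif2ak1 were both at 1.39 and the eEF2 kinase Eef2k was at 0.36. Exon lengths came from a newer annotation than the one counted, so the per-kilobase levels are approximate. Eif4a1, Eif4a2 and Eef2 contain 3, 5 and 1 annotated small nucleolar RNAs, whose part in the values was not tested. Eif4a1 also held only 36.2% to 54.7% of the sum with a processed copy. The places of these genes in the order are therefore uncertain as levels of mRNA.

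**Figure D1:**
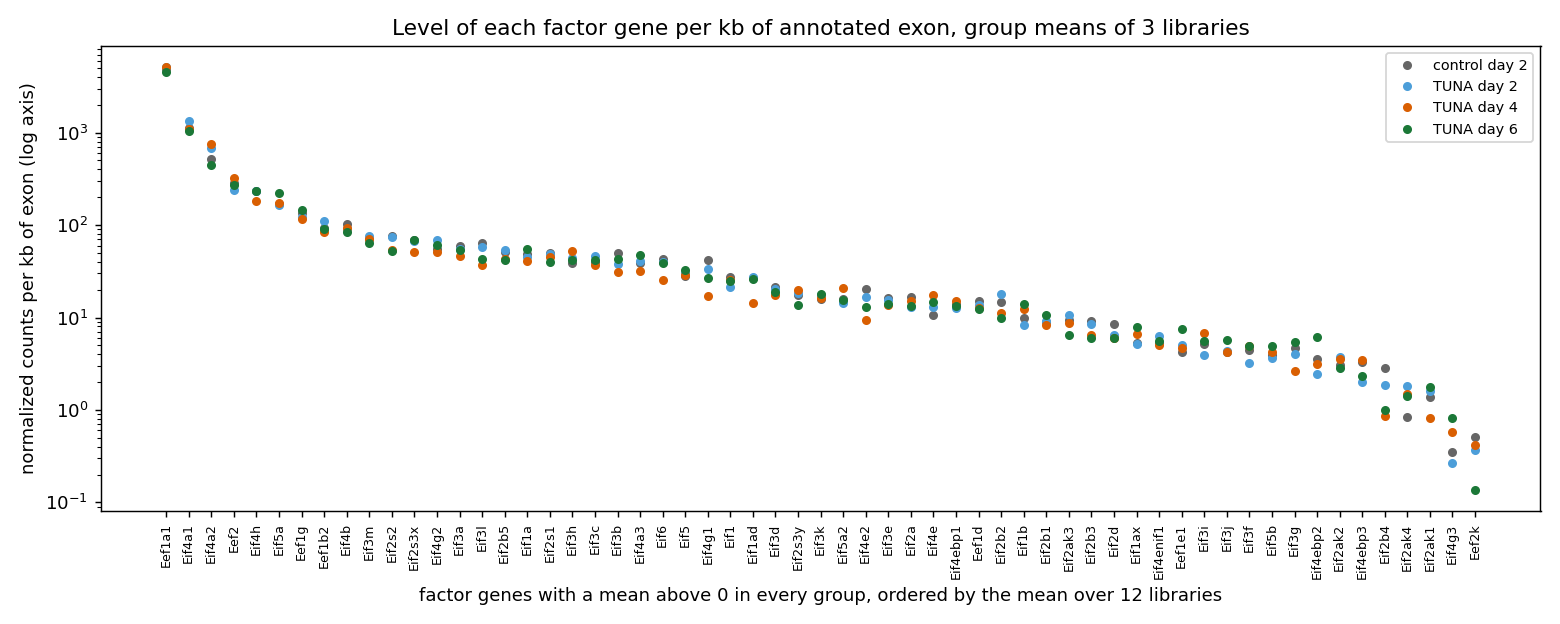
Normalized counts per kilobase of annotated exon on a log axis (vertical) for each factor gene with a mean above 0 in every group (horizontal, ordered by the mean over 12 libraries); each point is the mean of 3 libraries of a group. Eef1a1 stands highest at a 12-library mean of 4890.3 and Eef2k lowest at 0.36, and the 4 groups lie close together for most genes.

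Across the groups, the highest group mean was a median of 1.34 times the lowest over the 61 tested rows, with a range of 1.04 to 2.49 times. This ratio was not taken over all rows, so it does not show that the factors were steadier than other genes. A row was called higher or lower when its limma p-value, adjusted by Benjamini-Hochberg over all 8739 tested rows, was under 0.05. All log2 changes below are on the log2(normalized count + 1) scale, which understates changes of low rows, and are followed by their standard error. At day 2 against the control, 0 of 61 factor rows were called by limma, against 0.961% of all rows tested (0.412% higher and 0.549% lower), and 4 had an unadjusted p under 0.05 (2 higher and 2 lower). At day 4 against the control, 1 factor row was called higher and 8 lower, together 14.8% of the 61, against 14.7% of all rows in either direction, 6.99% higher and 7.76% lower. At day 6 against the control, 0 were called higher and 3 lower, 4.92% of the 61 against 6.21% of all rows, with 3.07% higher and 3.15% lower. Against the background, the share of factor rows called at day 4 and at day 6, both directions together, was near that of all rows. The factor rows called at these days were nearly all lower, while the calls over all rows were split almost evenly between directions, and that difference was not tested.

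Between hairpin days, day 4 had 0 factor rows called higher and 4 lower than day 2, or 6.56% against 7.66% of all rows (3.27% higher and 4.38% lower). Day 6 had 2 called higher and 0 lower than day 4, or 3.28% against 5.58% of all rows (2.64% higher and 2.94% lower). These comparisons share libraries with those against the control. The median log2 change over the tested factor rows was against the control -0.03 (day 2), -0.09 (day 4) and -0.06 (day 6), beside medians of 0.006, -0.009 and -0.010 over all rows. It was -0.13 from day 2 to day 4 and 0.06 from day 4 to day 6. Among the 41 factor rows whose mean reached 50 normalized counts, 9 (22.0%) were called at day 4, beside 20.6% of 3260 rows of that level.

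The count of rows called lower at day 4, 8 in the full fit, rested partly on single libraries and was 4 to 7 when 1 was left out. It was 4 without control replicate 2 or without day 4 replicate 2, and 5 without control replicate 3. Smaller shifts of this and the following counts are not listed in this paragraph. The 1 row called higher became 0 without control replicate 1, day 4 replicate 1 or day 4 replicate 2, and 2 without day 4 replicate 3. At day 6 the 3 rows called lower became 0 without control replicate 2 and 1 without control replicate 1, control replicate 3, day 6 replicate 1 or day 6 replicate 3. The 4 rows called lower from day 2 to day 4 became 2 without day 2 replicate 1 or replicate 2. The 2 called higher from day 4 to day 6 became 0 without day 4 replicate 2 and 1 without day 6 replicate 1 or replicate 2, and 1 row was called lower without day 4 replicate 1 or replicate 3.

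**Figure D2:**
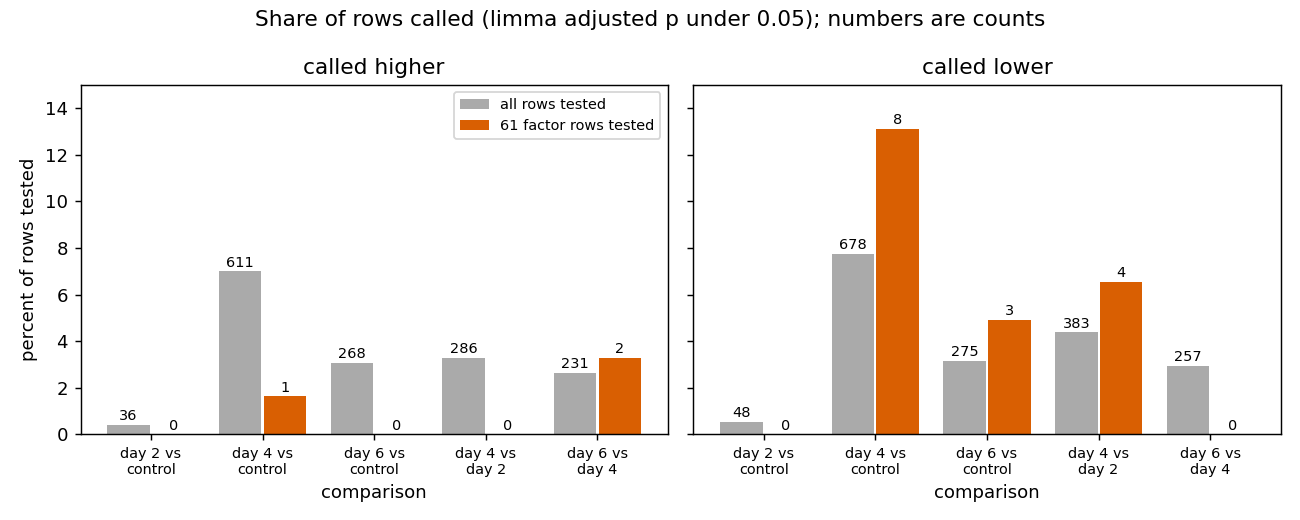
Percent of tested rows called higher and lower by limma (vertical) in the 5 comparisons (horizontal), for the 61 tested factor rows and for all tested rows, with the number of rows called above each bar. The factor rows called lower at day 4 against the control number 8 of 61, beside 678 of all 8739 rows (7.76%).

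In the cap-binding and helicase class, 4 of 9 tested rows were called at day 4 against the control, beside 14.7% of all rows, 3 lower (Eif4g1, Eif4e2 and Eif4h) and 1 higher (Eif4e). Eif4g1, the scaffold of the cap-binding complex, fell to less than its control level at both later days and was lowest at day 4. Eif4e2, a cap-binding protein related to eIF4E that does not join eIF4G and is known for holding mRNAs from translation, followed the same course. Eif4e, the main cap-binding protein, rose at day 4. In bulk RNA of this kind, fewer cells of a type and less RNA per cell cannot be told apart.

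Eif4g1 had 334, 324 and 267 normalized counts in the control libraries and 254, 224 and 247 at day 2 of the TUNA hairpin. It had 130.2, 119.8 and 124 at day 4 and 189, 179.6 and 224 at day 6. Every TUNA library lay below every control library, the day 4 libraries lay below all others, and the day 6 libraries lay between those of day 4 and the control. The log2 change against the control was -0.34 ± 0.14 at day 2 (limma adjusted p = 0.336), -1.29 ± 0.14 at day 4 (adjusted p = 2.4e-05), a 2.45-fold lower level, and -0.64 ± 0.14 at day 6 (adjusted p = 0.0111). Day 4 was lower than day 2 by limma, at -0.95 ± 0.14 (adjusted p = 0.000593), and day 6 was higher than day 4, at 0.65 ± 0.14 (adjusted p = 0.0112). The calls at day 4 against the control and against day 2 held in all alternatives run. The day 6 call was lost without control replicate 1, control replicate 2 or day 6 replicate 1 (adjusted p up to 0.0591), and the day 6 to day 4 call without day 4 replicate 2 (0.0550) or with only the 2 groups in the fit (0.0703). The gene contains 1 annotated small nucleolar RNA, and its part in the values was not tested.

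Eif4e2 had 171, 143 and 146 normalized counts in the control libraries, 123, 129.9 and 122 at day 2, 65.9, 56.8 and 89.1 at day 4, and 109, 90.1 and 92.3 at day 6. The day 2, day 4 and day 6 libraries all lay below the control libraries, and those of day 4 below those of day 6. At day 4 the log2 change against the control was -1.13 ± 0.17 (limma adjusted p = 0.000374), a 2.19-fold lower level, and at day 6 it was -0.66 ± 0.17 (adjusted p = 0.0292). Day 4 was also lower than day 2, by -0.84 ± 0.17 (limma adjusted p = 0.00679). The day 4 calls held in all alternatives run. The day 6 call was lost without any 1 of the control libraries, day 6 replicate 2 or day 6 replicate 3 (adjusted p up to 0.1297).

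Eif4e moved the other way. Its control libraries held 52.0, 78.7 and 63.0 normalized counts, those of day 2 held 76.5, 83.0 and 74.7, those of day 4 held 115, 112 and 86.8, and those of day 6 held 100.1, 103 and 63.5. The day 4 libraries lay above all control libraries, while day 6 overlapped them through its replicate 3. At day 4 the log2 change was 0.70 ± 0.21 (limma adjusted p = 0.0312), a 1.62-fold higher level, and at day 6 it was 0.44 ± 0.21 (adjusted p = 0.249). The day 4 call was lost without control replicate 1, control replicate 3, day 4 replicate 1 or day 4 replicate 2 (adjusted p up to 0.1318).

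Eif4h, which stimulates the eIF4A helicase, was measured at high counts and changed little. The libraries held 1281, 1247 and 1412 normalized counts in the control, 1302, 1179 and 1381 at day 2, 982, 1042 and 993 at day 4, and 1300.4, 1242 and 1311 at day 6. Only the day 4 libraries stood apart, below all 9 others. The log2 change at day 4 was -0.38 ± 0.13 (limma adjusted p = 0.0481). This call was lost when any 1 of the 6 libraries was left out, with adjusted p from 0.0762 to 0.1502, and under 7 of 9 other settings.

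The other tested rows of this class were Eif4a1, Eif4a2, Eif4a3, Eif4b and Eif4g2, with 0 called in any comparison. The share of all rows called was 0.961% to 14.7%, so 0 calls in so few rows do not show that these genes were unchanged. Eif4a1 and Eif4a2, which encode the eIF4A helicases, varied widely within groups. Eif4a1 had 3915, 4636 and 6106 normalized counts in the control libraries, 6819.7, 5609 and 5138 at day 2, 5426, 4798 and 3909 at day 4, and 3806, 5799 and 3993 at day 6, with every TUNA group overlapping the control. Eif4a2 had 1870.4, 2672 and 3677 in the control, 4432, 3404 and 3206 at day 2, 5225, 3833 and 3068 at day 4, and 2657, 2612 and 1875 at day 6. Its day 6 libraries lay below all day 4 libraries, with a log2 change of -0.75 ± 0.24 that missed the threshold (limma adjusted p = 0.0751; 0.0375 without day 4 replicate 3). Its day 4 change against the control, 0.58 ± 0.24 (limma adjusted p = 0.111), was past the threshold without control replicate 3 or without day 4 replicate 3, with an adjusted p as low as 0.0374.

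Eif4a1, Eif4a2 and the elongation factor gene Eef2 ordered the libraries of the first 3 groups alike, with control replicate 3, day 2 replicate 1 and day 4 replicate 1 highest in each. They contain 3, 5 and 1 annotated small nucleolar RNAs. In all, 9 of the 61 tested rows contain such RNAs, and whether reads of these RNAs entered the rows was not tested. Without them and without the pseudogene rows, 46 rows remained. Of these, 1 was called higher and 7 lower at day 4 (17.4% against 14.7% of all rows), and 0 higher and 2 lower at day 6 (4.35% against 6.21%).

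**Figure D3:**
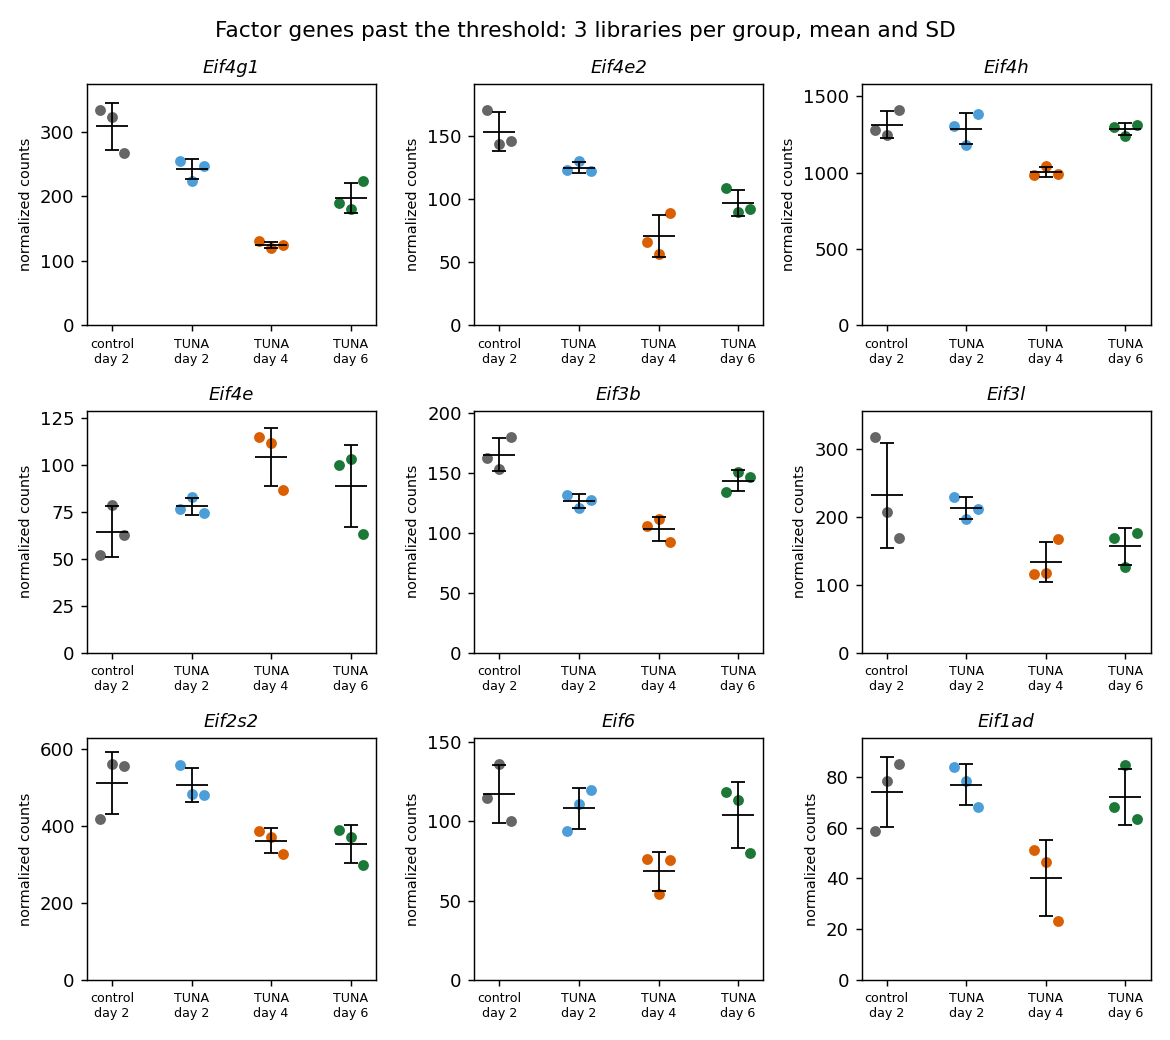
Normalized counts (vertical, from 0) in each of the 12 libraries (points) by group (horizontal), with a long line at each group mean and error bars of 1 SD, for the 9 factor genes called in at least 1 comparison. Eif4g1 fell from a control mean of 308 to 125 at day 4 and stood at 198 at day 6, while Eif4e rose from 64.6 to 105.

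Promoter sequences were compared for 4 cap-binding class genes called at day 4: the Eif4g1, Eif4h and Eif4e windows hold the E-box CACGTG, a site known to be bound by MYC and related factors, and the Eif4e2 window does not. Each sequence runs 5′ to 3′ on the gene's strand, from 150 bases before the RefSeq start to 30 bases from it, in GRCm38.p6 with CACGTG in capitals. The windows are chr16:20672577-20672756 (plus strand) for Eif4g1, chr5:134639380-134639559 (minus strand) for Eif4h, chr3:138527118-138527297 (plus strand) for Eif4e and chr1:87213761-87213940 (plus strand) for Eif4e2.
Eif4g1: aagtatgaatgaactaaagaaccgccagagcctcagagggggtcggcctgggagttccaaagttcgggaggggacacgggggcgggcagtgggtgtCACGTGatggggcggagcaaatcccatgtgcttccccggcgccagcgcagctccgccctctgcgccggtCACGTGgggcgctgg
Eif4h: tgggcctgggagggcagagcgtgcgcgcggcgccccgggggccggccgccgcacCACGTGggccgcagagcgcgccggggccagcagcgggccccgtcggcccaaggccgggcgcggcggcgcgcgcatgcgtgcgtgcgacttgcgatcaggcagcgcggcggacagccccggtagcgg
Eif4e: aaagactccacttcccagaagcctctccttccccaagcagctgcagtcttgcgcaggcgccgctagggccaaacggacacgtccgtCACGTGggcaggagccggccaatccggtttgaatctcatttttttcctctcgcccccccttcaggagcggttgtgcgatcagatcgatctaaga
Eif4e2: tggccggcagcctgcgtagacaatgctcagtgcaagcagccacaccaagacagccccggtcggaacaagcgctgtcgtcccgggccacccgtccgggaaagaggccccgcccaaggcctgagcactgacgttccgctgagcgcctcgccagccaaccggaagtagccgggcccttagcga
Eif4g1 holds 2 copies, the first beginning 54 bases before the start and the second 15 bases after it. The copy in Eif4h begins 96 bases before the start and that in Eif4e 64 bases before it. RefSeq lists 2 promoters for Eif4e and 3 for Eif4e2, of which 1 each is shown. The Eif4e window was chosen because it holds the motif. For the other genes the first listed window was shown.

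CACGTG reads the same on both strands, so a single search covers both. In RefSeq windows of 300 bases (250 before the start and 50 after), it was present in 7.15% of all 32851 windows and in 13.04% of the 5636 tested genes with a window. It was present in 11 of the 45 tested factor genes with a window (24.4%): Eef2, Eif1b, Eif3a, Eif3f, Eif3k, Eif4a1, Eif4e, Eif4g1, Eif4h, Eif5a and Eif5a2. Among the called genes it was present in 3 of 8, and among the uncalled in 8 of 37 (21.6%). The 3 called genes with the motif were the called-lower Eif4g1 and Eif4h and the called-higher Eif4e. Whether the motif goes with a change or its direction was not tested. A match is a description of the letters in the window. No binding was measured.

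The eIF4E binding proteins, which compete with eIF4G for eIF4E, gave 0 calls among 3 tested rows, beside 0.961% to 14.7% of all rows by comparison. With 3 rows, 0 calls do not show that the class was unchanged. Eif4enif1, which carries eIF4E into the nucleus, had means of 33.4 ± 5.66 (SD, n = 3), 40.0 ± 6.43, 32.1 ± 3.92 and 35.4 ± 7.95 normalized counts in the control and at days 2, 4 and 6. Eif4ebp2 had 16.3, 29.2 and 16.1 in the control, 10.1, 18.3 and 14.2 at day 2, 20.4, 18.4 and 15.9 at day 4, and 30.1, 34.9 and 41.2 at day 6. Its day 6 libraries lay above all 9 others, with a log2 change against the control of 0.80 ± 0.29 that missed the threshold (limma adjusted p = 0.123). At day 2 it had the largest negative change of the tested factors, -0.48 ± 0.29 (limma adjusted p = 0.54).

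eIF3 is the largest initiation factor, and all 13 of its subunit genes were tested. At day 4, 2 were called lower and 0 higher, 15.4% against 14.7% of all rows, and the other 11 missed the threshold. At day 2 and day 6 against the control, 0 were called, against 0.961% and 6.21% of all rows. Eif3b, the scaffold on which other subunits assemble, had 163, 153 and 181 normalized counts in the control, 132, 121 and 127 at day 2, 106, 112 and 92.2 at day 4, and 134, 151 and 147 at day 6. All TUNA libraries lay below the control libraries and those of day 4 lay lowest. The day 4 log2 change was -0.68 ± 0.14 (limma adjusted p = 0.00414), a 1.60-fold lower level, and it stayed called in all alternatives run. The change from day 4 to day 6, 0.48 ± 0.14, missed the threshold (limma adjusted p = 0.0581).

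Eif3l, an accessory eIF3 subunit, had 318, 208 and 169 normalized counts in the control, 229, 198 and 212 at day 2, 116, 118 and 168 at day 4, and 169, 126 and 176 at day 6. The control libraries spread from 169 to 318, and day 4 replicate 3 lay just below the lowest of them. At day 4 the log2 change was -0.76 ± 0.21 (limma adjusted p = 0.0224), which was lost without control replicate 1, day 4 replicate 1 or day 4 replicate 2 (adjusted p up to 0.124). Control replicate 1 and day 4 replicate 3 were also the highest of their groups for Eif3m (238 and 255 normalized counts), for the elongation factor gene Eef1g (437 and 344) and for the pseudogene row Eif3s6-ps3 (63.8 and 89.1).

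Eif3a, the eIF3 subunit with the most counts, had 538, 508 and 525 in the control, 466, 462 and 503 at day 2, 386, 373 and 465 at day 4, and 449.5, 476 and 492 at day 6. Each TUNA group lay below the control libraries. The day 4 change, -0.37 ± 0.13, missed the threshold (limma adjusted p = 0.0624) and passed it under a filter of 30 counts (0.0470) and without day 4 replicate 3 (0.0251). Eif3i had the largest positive change of the tested factors from day 2 to day 4, 0.79 ± 0.28, which also missed the threshold (limma adjusted p = 0.0981). Its group means were 19.1 ± 4.84, 14.7 ± 5.17, 25.1 ± 1.54 and 20.5 ± 2.63 normalized counts (SD, n = 3 each), in the order control, day 2, day 4 and day 6.

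eIF2 carries the initiator tRNA, and 1 of its 4 subunit rows was called, at day 4 and at day 6 (25% against 14.7% and 6.21% of all rows). Eif2s2, the beta subunit, had 418, 560.4 and 554 normalized counts in the control, 558, 482 and 480.4 at day 2, 387, 371 and 326 at day 4, and 389, 372 and 297 at day 6. The day 4 and day 6 libraries lay below all control libraries, with control replicate 1 nearest to them. The log2 change was -0.49 ± 0.15 at day 4 (limma adjusted p = 0.0392) and -0.53 ± 0.15 at day 6 (adjusted p = 0.0477). The day 4 call was lost without any 1 of the 6 libraries except control replicate 1 (adjusted p up to 0.1456), and so was the day 6 call (up to 0.1724). Of 9 other settings, 4 also ended the day 4 call (adjusted p up to 0.0656) and 6 the day 6 call (up to 0.1117). Eif2s3x, a gamma subunit gene, held 257, 103 and 222 normalized counts at day 4, with replicate 2 far below the others, and was not called.

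The exchange factor eIF2B, which recharges eIF2 with GTP, gave 0 calls over 4 tested subunits, beside 0.961% to 14.7% of all rows by comparison. Eif2b5, its catalytic subunit, had 132 ± 7.42, 140.3 ± 16.1, 112 ± 7.72 and 109.8 ± 27.3 normalized counts (SD, n = 3) in the control and at days 2, 4 and 6. The 4 eIF2 kinase genes gave 0 calls as well, beside the same shares of all rows. With 4 rows tested in each class, 0 calls do not show that either class was unchanged. Eif2ak3, the kinase of endoplasmic reticulum stress and the most counted of the 4 kinase genes, had 56.6 ± 17.5, 63.8 ± 17.4, 52.8 ± 13.2 and 39.2 ± 8.73. Eif2ak4, the kinase that senses uncharged tRNA, had 6.90, 7.94 and 3.73 in the control, 16.7, 12.5 and 11.7 at day 2, 15.6, 10.3 and 7.33 at day 4, and 3.67, 15.5 and 12.3 at day 6.

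Only at day 2 did the Eif2ak4 libraries all lie above those of the control. This was the largest positive change of the tested factors at day 2, 1.06 ± 0.47, and it missed the threshold (limma adjusted p = 0.37), at a depth of 3.38 to 24.0 recovered reads per library. It had the largest positive change at day 4 too, 0.74 ± 0.47 (limma adjusted p = 0.306). The heme-regulated kinase gene Eif2ak1 had the largest positive change from day 4 to day 6, 0.98 ± 0.57 (limma adjusted p = 0.355), at 2.0 to 16.6 reads. Eif2a, which can carry initiator tRNA without being a subunit of eIF2, had 103 ± 6.60, 79.5 ± 18.3, 93.3 ± 24.6 and 82.0 ± 9.40 normalized counts (SD, n = 3) and was not called.

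Among the 7 rows classed under start site scanning and subunit joining, only Eif1ad was called against the control, at day 4 (14.3% against 14.7% of all rows). Its protein contains a domain like that of eIF1A, which does not make it a scanning factor, and its role was not tested. Eif1ad had 58.5, 78.5 and 85.1 normalized counts in the control, 84.0, 78.6 and 68.1 at day 2, 51.2, 46.3 and 23.2 at day 4, and 68.2, 84.7 and 63.5 at day 6. The day 4 libraries lay below all 9 others, and the other groups overlapped each other. The log2 change at day 4 was -0.92 ± 0.25 against the control (limma adjusted p = 0.0192) and -0.99 ± 0.25 against day 2 (adjusted p = 0.0213), and day 6 was higher than day 4 by 0.89 ± 0.25 (adjusted p = 0.045). Each call depended on single libraries. That against the control was lost without control replicate 2, control replicate 3 or day 4 replicate 3 (adjusted p up to 0.0746), and that against day 2 without day 2 replicate 1, day 2 replicate 2 or day 4 replicate 3 (up to 0.0791). The rise to day 6 was lost without day 4 replicate 2, day 4 replicate 3, day 6 replicate 1 or day 6 replicate 2 (up to 0.1426), and under 4 of 9 other settings (up to 0.1386). Eif5, which triggers GTP hydrolysis by eIF2 at the start codon, had 194 ± 9.70, 205 ± 8.77, 195 ± 16.3 and 225 ± 26.8 (SD, n = 3).

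Eif6, which binds the large ribosomal subunit and keeps it from joining the small subunit too early, was called lower at day 4. It had 115, 136 and 100.2 normalized counts in the control, 94.1, 111 and 119.6 at day 2, 76.0, 54.4 and 75.4 at day 4, and 119, 113 and 80.1 at day 6. The day 4 libraries lay below all 9 others. The log2 change was -0.77 ± 0.20 against the control (limma adjusted p = 0.0132), a 1.70-fold lower level, and -0.66 ± 0.20 against day 2 (adjusted p = 0.0472). The call against the control was lost without control replicate 2 or day 4 replicate 2 (adjusted p up to 0.0789), and the call against day 2 without any 1 of the 6 libraries except day 4 replicate 3 (up to 0.1977). Of 9 other settings, 6 also ended the call against day 2 (up to 0.0815). From day 4 to day 6 the change of 0.59 ± 0.20 missed the threshold (limma adjusted p = 0.0851; 0.0300 without day 6 replicate 3).

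Eif5a, whose protein carries the modified residue hypusine and helps ribosomes past difficult stretches, was the member nearest to a call in the upward direction at day 6. It had 399, 389 and 430.2 normalized counts in the control, 379, 387 and 398 at day 2, 422, 409.9 and 419 at day 4, and 563, 519 and 505 at day 6. The day 6 libraries lay above all 9 others. The log2 change against the control was 0.38 ± 0.12 (limma adjusted p = 0.0725), and limma-voom on recovered reads called it.

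The elongation factor genes gave 0 calls among 6 tested rows in each of the 5 comparisons, beside 0.961% to 14.7% of all rows. Eef1a1 had 12486, 11477 and 12342 normalized counts in the control, 13029.6, 12401 and 12583 at day 2, 13616, 12873 and 11849 at day 4, and 11254, 12067 and 10320.3 at day 6, with each group overlapping the control. Its log2 change at day 4 was 0.08, with a 95% interval from -0.29 to 0.44. Eef2 had 954 ± 128, 805 ± 34.1, 1073 ± 174 and 911 ± 164 (SD, n = 3) in the same order of groups. Eef1e1, a small protein of the tRNA synthetase complex related to eEF1, had 21.6, 12.9 and 7.43 in the control and 18.7, 26.5 and 28.9 at day 6. These 2 groups overlapped, and the change of 0.87 ± 0.36, the largest positive change of the tested factors at day 6, missed the threshold (limma adjusted p = 0.18).

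**Figure D4:**
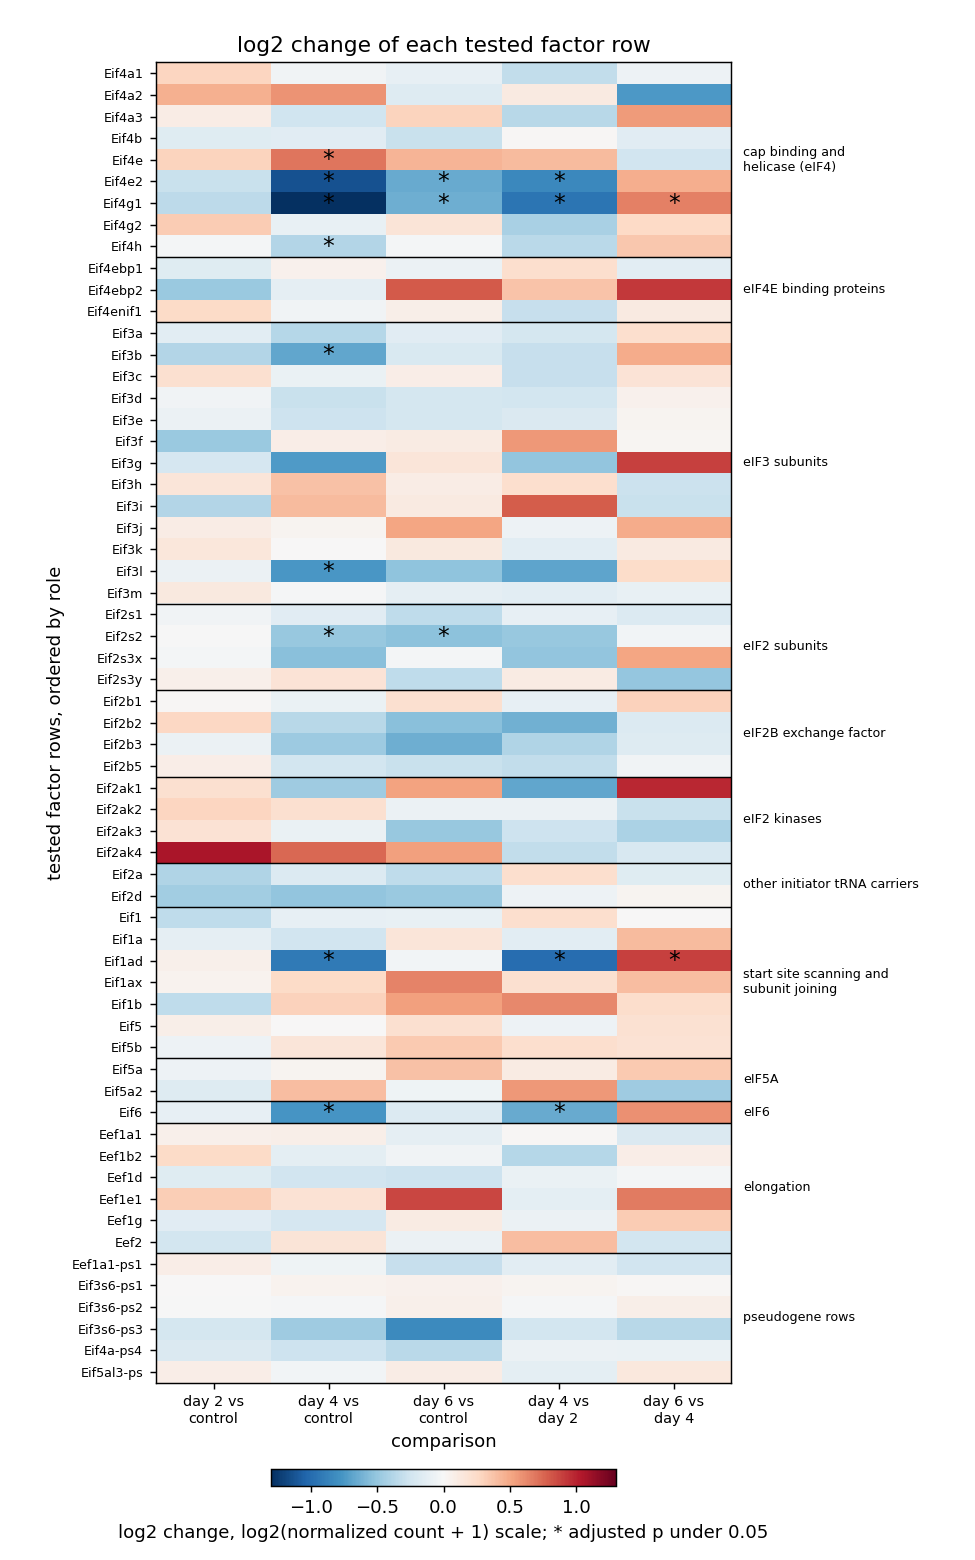
Log2 change (colour, blue lower and red higher) of the 61 tested factor rows (vertical, grouped by role) in the 5 comparisons (horizontal), with an asterisk at a limma adjusted p under 0.05. Eif4g1 reached -1.29 at day 4, and the elongation rows carry 0.

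Several rows share sequence with processed copies, and the sources used here do not say how the authors' counting divided reads among them. Eif4a-ps4, a copy of Eif4a1, held 6610.0 ± 243, 5789 ± 57.9, 5488 ± 322 and 5186 ± 511 normalized counts (SD, n = 3) in the control and at days 2, 4 and 6. Its TUNA libraries all lay below the control libraries, with 0 calls. Eif4a1 held 36.2% to 54.7% of the sum of both rows, so the level of either is uncertain. Eif3s6-ps2 held 229 ± 14.5 in the control beside 111 ± 21.6 for its parent gene Eif3e, which took 17.1% to 28.5% of the sum over its 5 rows.

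Eef1a1 held 96.4% to 97.3% of the sum with its copy. Eif5a held 69.6% to 76.9%, with 71.9% to 72.2% in the control and 75.3% to 76.9% at day 6. Eif3s6-ps3 had the largest negative change of the tested factors at day 6, -0.82 ± 0.50 (limma adjusted p = 0.397). Its day 4 libraries held 18.2, 18.2 and 89.1 normalized counts, and without day 4 replicate 3 its day 4 change was called (limma adjusted p = 0.0490).

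At day 4 and day 6, more factor rows lay wholly below the control than wholly above it. At day 2 the libraries of 3 factor rows lay wholly above and those of 5 wholly below the control, together 13.1% against 20.1% of all rows. The counts were 1 above and 12 below at day 4 (21.3% against 32.4% of all rows) and 4 above and 13 below at day 6 (27.9% against 24% of all rows). From day 2 to day 4 they were 5 above and 16 below (34.4% against 28.6%), and from day 4 to day 6 they were 12 above and 4 below (26.2% against 23.3%). By direction, 9.76% of all rows lay wholly above and 10.3% wholly below the control at day 2. These shares were 15.5% and 16.9% at day 4, and 11.2% and 12.8% at day 6. Between days they were 14.2% and 14.3% from day 2 to day 4, and 11.5% and 11.8% from day 4 to day 6.

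Marker genes of cell state also differed from the control at day 4 and day 6. The 14 fibroblast and feeder markers summed to 17.1 to 31.9 normalized counts in the control libraries and 23.4 to 56.0 at day 2 of the TUNA hairpin. Their sum was between 35.3 and 54.4 in the day 4 libraries and between 308 and 398 in those of day 6. Of the 5 that were tested, limma called 2 higher at day 4 (Acta2, adjusted p = 0.0353, and Tagln, 0.0354) and 4 higher at day 6 (Acta2, Tagln, Thbs1 and Timp3). These are 40% and 80% of the 5, against 14.7% and 6.21% of all rows. Acta2, Thbs1 and Timp3 passed the count filter only through day 6, so their day 6 calls are not independent of that filter. The day 4 call of Acta2 compares means of 0.368 and 5.48, near the floor. Acta2 and Tagln, with day 6 means of 140 and 149, made up most of the day 6 sum. The collagen genes named above stayed at 0. The 12 pluripotent cell markers summed to 3156 to 3429.6 in the control libraries and 2869 to 3095 at day 2, with a range of 2682 to 2909.99 in the day 4 libraries and of 2157 to 2582 in those of day 6. Of these 12, limma called 0 higher and 3 lower at day 4 (25% against 14.7% of all rows): Pou5f1 (log2 change -0.57 ± 0.14, adjusted p = 0.0113), Zfp42 (-0.76 ± 0.17, 0.00528) and Lin28a (-0.64 ± 0.14, 0.00557). The day 4 changes were positive in 5 of the 12 and negative in 7, with 2 genes wholly above and 5 wholly below the control. At day 6 limma called 0 higher and 3 lower (25% against 6.21% of all rows): Nanog (-0.96 ± 0.16, adjusted p = 0.00188), Sox2 (-0.55 ± 0.13, 0.0134) and Zfp42 (-0.65 ± 0.17, 0.0247). The day 6 changes were positive in 3 and negative in 9, with 2 genes wholly above and 5 wholly below the control. The 3 rows tied to U3 took 74.0% to 75.5% of reads in the control, between 64.2% and 76.9% at day 4 and between 60.4% and 69.3% at day 6. The part of these shifts in the factor values was not tested.

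Genes that regulate the factors were counted from lists chosen by function. Of 32 tested translation regulators, such as mTOR pathway members and poly(A)-binding proteins, limma called 0 higher and 1 lower at day 2, 1 higher and 3 lower at day 4, and 0 higher and 2 lower at day 6. These are 3.12%, 12.5% and 6.25% of the 32, against 0.961%, 14.7% and 6.21% of all rows. Igf2bp1, an mRNA-binding protein of early development, had 362 ± 34.4, 229 ± 1.79, 218 ± 7.22 and 382 ± 74.2 normalized counts (SD, n = 3) in the control and at days 2, 4 and 6. It was lower at day 2 by limma (log2 change -0.66 ± 0.15, adjusted p = 0.0413) and at day 4 (-0.72 ± 0.15, adjusted p = 0.00305), and its day 6 level was near the control. Dhx29, a helicase that aids scanning, was lower by limma at day 4 (-0.77 ± 0.18, adjusted p = 0.00908) and day 6 (-0.76 ± 0.18, adjusted p = 0.017). Paip2b, which inhibits poly(A)-binding protein, was lower at both days (limma adjusted p = 0.0418 and 0.0143). Pdcd4, an inhibitor of the eIF4A helicase, was higher at day 4, from 7.72 ± 2.22 in the control to 16.7 ± 0.549 (limma adjusted p = 0.0306).

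Of 16 tested genes of termination, recycling and factor modification, 0 were called higher and 2 lower at day 4, or 12.5% against 14.7% of all rows. Etf1, the release factor that reads stop codons, fell from 689 ± 63.5 to 449.9 ± 90.5 normalized counts (SD, n = 3; log2 change -0.63 ± 0.15, limma adjusted p = 0.0104). Gtpbp1, a GTPase related to elongation factors, was lower by -1.01 ± 0.31 (limma adjusted p = 0.0347). The 9 tested mitochondrial translation factors gave 0 calls at each day against the control, beside 0.961%, 14.7% and 6.21% of all rows at days 2, 4 and 6. A list of 23 genes held cytosolic tRNA synthetases, the mitochondrial synthetase gene Fars2 and the scaffold genes Aimp1 and Aimp2. Of the 23, 1 was called lower at day 4 (4.35% against 14.7% of all rows), Vars (-1.25 ± 0.23, limma adjusted p = 0.00134). A negative change was seen in 21 of the 23, Fars2, Aimp1 and Aimp2 among them, beside 4421 of all 8739 rows. The median was -0.25, beside -0.009 over all rows.

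Targets of the stress pathway downstream of eIF2 moved in both directions. Of 30 listed genes 18 were tested, with 1 called higher at day 2, 2 higher and 4 lower at day 4, and 1 higher and 3 lower at day 6. These are 5.56%, 33.3% and 22.2% of the 18, against 0.961%, 14.7% and 6.21% of all rows. Ddit4, an mTOR inhibitor, rose at day 4 from 14.4 ± 1.29 to 83.6 ± 26.4 normalized counts (log2 change 2.41 ± 0.27, limma adjusted p = 3.14e-05) and was at 16.6 ± 3.04 at day 6 (SD, n = 3). Sesn2, which restrains mTOR, was higher at day 4 and day 6 (limma adjusted p = 0.0278 and 0.0463).

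The amino acid transporter genes Slc7a3 (-1.43 ± 0.19, limma adjusted p = 0.000107), Slc7a5 (-1.48 ± 0.37, 0.0124) and Slc3a2 (-0.82 ± 0.20, 0.00992) were lower at day 4, as was the aminotransferase gene Gpt2 (-1.63 ± 0.51, 0.0407). At day 6, Slc7a3, the asparagine synthetase gene Asns (-0.74 ± 0.16, 0.00916) and the cysteine synthesis gene Cth (-0.89 ± 0.23, 0.026) were called lower by limma. Cth was called higher at day 2 (1.06 ± 0.23, limma adjusted p = 0.0361). Atf4 had 95.2 ± 10.04, 62.1 ± 12.04, 77.1 ± 15.3 and 76.7 ± 2.00 (SD, n = 3) and was not called at any day.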

How the data were processed

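Total RNA of 12 libraries in 4 groups of 3, assigned by the samples' labels, was sequenced. The authors deposited 1 table of log2 normalized counts for 37477 rows. BWA, DESeq and mouse build mm9 are named per the submitters' processing notes, without versions or roles. Values listed at 0 (1 normalized count or less) were set to 0 and the others raised back from log2. A count test had been planned, but the worth of 1 read showed only 43.8% to 56.8% of values under 20 reads within 0.02 of a whole read, so limma was used instead. Rows with at least 10 normalized counts in 3 libraries (8739) were fitted as log2(value + 1) by limma 3.58.1 (R 4.3.3), with a mean for each of the 4 groups and a variance trend. The residual degrees of freedom were 8 and the prior ones 9.48. Within each of 5 comparisons, the Benjamini-Hochberg method adjusted the p-values. The fit was tested on simulated data.

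Depth was recovered from the smallest steps between values, and the precision of a row is limited by its reads. Alternatives were other scalings, filters and pseudocounts, limma-voom on the recovered reads, a block on the replicate number, the 2 groups compared alone, each library left out and, added after seeing the data, the factor rows without small nucleolar RNA hosts and pseudogenes. Genes named were every factor row called in any comparison, the tested row with the most counts in each role, the largest positive and negative change per comparison, and genes of the other lists called at any day against the control (at most 6 a list, by size of change). Slc3a2 and Asns fall outside that limit and are named to complete a count, chosen after their values were seen. A few further rows are named for their libraries or copies, chosen after their values were seen. The members and lists were chosen with earlier results of these data known. Promoters came from RefSeq (GRCm38.p6) and exon lengths and small nucleolar RNAs from GENCODE M21 on GRCm38. Plots used matplotlib 3.10.9 (Python 3.11.15).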

Additional observations from a re-analysis of the deposited data

Results flagged for a closer look

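Differences between days of the TUNA hairpin passed the limma test, adjusted by Benjamini-Hochberg over all rows, for 4 factor genes, with 3 libraries a group. The share of the 61 tested factor rows called was 6.56% between day 2 and day 4, against 7.66% of all rows. Between day 4 and day 6 it was 3.28%, against 5.58% of all rows. From day 2 to day 4 the log2 difference was -0.95 for Eif4g1 (adjusted p = 0.000593), -0.84 for Eif4e2 (0.00679), -0.99 for Eif1ad (0.0213) and -0.66 for Eif6 (0.0472). In each of the 4 genes every day 4 library lay below every day 2 library. The Eif1ad difference lost its call in 3 of 6 fits that left out a library, and that of Eif6 in 5 of 6 and under 6 of 9 other settings. From day 4 to day 6 the log2 difference was 0.65 for Eif4g1 (0.0112) and 0.89 for Eif1ad (0.0450), with every day 6 library above every day 4 library. That of Eif4g1 was lost in 1 of 6 such fits and 1 of 9 settings, and that of Eif1ad in 4 of 6 and 4 of 9. The days share libraries between these comparisons, and all control libraries were from day 2.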

How the results depend on the processing

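No called gene changed direction in any alternative. Of 18 calls of the 9 named factor genes, 5 held in every alternative: Eif4g1 and Eif4e2 at day 4 against the control and against day 2, and Eif3b at day 4 against the control. The number of factor genes called higher from day 4 to day 6, 2 in the fit reported, was 1 with upper quartile scaling, 1 with no filter, 4 with a filter of 30 counts, 0 with only the 2 groups and 1 without small nucleolar RNA hosts and pseudogene rows. Limma-voom called 1 factor gene higher at day 6 against the control. Rows called lower at day 2 were 27 with no filter, in place of 48. With only the 2 groups, 92 rows were called higher and 105 lower from day 4 to day 6, in place of 231 and 257. Fewer libraries enter that fit.

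With each library left out in turn, factor genes called ranged from 0 to 2 higher and 4 to 7 lower at day 4, from 0 to 0 higher and 0 to 2 lower at day 6, from 2 to 5 lower between day 2 and day 4, and from 0 to 3 higher and 0 to 1 lower between day 4 and day 6. All rows called ranged from 9 to 24 higher and 9 to 21 lower at day 2, 362 to 572 and 447 to 715 at day 4, and 125 to 237 and 157 to 319 at day 6. Between days they ranged from 141 to 269 higher and 188 to 470 lower (day 2 to day 4) and from 99 to 224 and 120 to 248 (day 4 to day 6). The median change of the factor rows ranged from -0.0580 to 0.00368 at day 2, -0.147 to -0.0896 at day 4, -0.0856 to 0.0104 at day 6, -0.204 to -0.0893 from day 2 to day 4 and 0.0236 to 0.124 from day 4 to day 6.

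Over 18 pairs of same-numbered replicates, the correlation of deviations from the group means had a median of 0.018 and ran from -0.277 to 0.328. Over 36 pairs with unlike numbers it had a median of -0.0005 and ran from -0.331 to 0.315. The labels do not say whether the numbers pair the samples. With 3 libraries a group, these values cannot settle it. With a block on the replicate number, 6 factor genes were called lower and 1 higher at day 4, 2 lower at day 6, 3 lower from day 2 to day 4 and 2 higher from day 4 to day 6. The calls lost under the block were Eif2s2 at day 4 and day 6, Eif4h at day 4 and Eif6 from day 2 to day 4. All rows called under the block were 36 higher and 40 lower at day 2, 569 and 650 at day 4, and 248 and 259 at day 6. Eif2ak1, Eif2ak4 and Eif3g had at most 24.0 reads in any library, which limits the precision of their changes.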
